A study of Mus musculus with 5 samples.

Results

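In muscle stem cells (MuSCs), 9684 H3K27ac peaks lay at the promoters of protein-coding genes and touched no JunB peak in any library. They were selected by position: an H3K27ac peak on chromosomes 1-19 or X, within 3 kb of an annotated transcription start site (TSS) of a protein-coding gene, that shared not even 1 bp with a peak of any of the 4 JunB libraries. There were 13405 H3K27ac promoter peaks in all, so the peaks without JunB made up 72.2% of them, and the other 3721 overlapped JunB. H3K27ac peaks away from promoters, 26068 in number, lacked JunB in 83.8% of cases. The presence and absence of JunB peaks therefore chose the members, and these shares describe the selection and are not a result about it.

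H3K27ac is the acetylation of lysine on the tail of histone H3 that marks active promoters and enhancers. JunB is a subunit of AP-1, a leucine zipper dimer formed by Jun and Fos proteins that binds a short palindromic DNA element and is induced by growth factors, stress and inflammatory signals. Muscle stem cells, also called satellite cells, lie under the basal lamina of the muscle fibre and supply the nuclei for growth and repair. Many of their active promoters belong to genes that every cell uses, and others to genes of the myogenic lineage, so a promoter can carry the acetyl mark with or without a given transcription factor.

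The study addressed cellular senescence in ageing skeletal muscle, and profiled MuSCs freshly sorted from mouse muscle by CUT&RUN, in which an antibody directs a nuclease to cut and release the DNA around its target. There were 3 JunB libraries labelled Young, 1 JunB library labelled Aged, and 1 H3K27ac library whose age was not labelled. The study's methods call the H3K27ac data its own but also name an external reference epigenome project, so their origin is not settled here. In those methods, aged mice were C57BL/6, and no strain was given for the young mice. MuSCs of young and aged mice were sorted as the CD45-, CD31-, SCA1- and VCAM1+ population. No genetic change was stated for any group. The series' design text names mice given DMSO or MVC in place of young and aged mice, so the groups are given here as the sample labels name them. The promoter classes rest on a single H3K27ac library and the aged group on a single JunB library, so differences between classes or ages are given without a test, and intervals are exact binomial 95% intervals that cover counting error only. Read depth is unknown, because only peak lists were used.

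Among genes that define MuSCs, 12 of 18 had an H3K27ac promoter peak, set against 50.2% of all 21755 protein-coding genes. The paired-box gene Pax7, the defining satellite cell factor, had none, nor had Myf5, Calcr, Cxcr4, Spry1 or Notch3. Markers of immune cells had such a peak in 2 of 12 cases and those of endothelial cells in 3 of 10. Of the genes behind the sort, Ptprc (CD45) and Ly6a (SCA1) had none, Pecam1 (CD31) had a peak 2602 bp from its nearest TSS, and Vcam1 had 3. Markers of fibro-adipogenic progenitors had one in 5 of 10, those of smooth muscle and pericytes in 3 of 8, those of Schwann cells in 3 of 6, and those of liver and neurons in 1 of 8. Markers of mature muscle fibres had one in 8 of 12, the same share as the MuSC markers, among them Myh2, Myh7 and Ttn. On these marker counts the H3K27ac list did not separate stem cells from fibres.

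The promoter windows of 6 genes are shown as examples of strong promoters on each side of the selection, each running from 250 bp before to 50 bp after the main TSS, read 5′ to 3′ on the gene's strand from the mm10 (GRCm38) genome. Capitals mark every copy, on either strand, of the core elements of AP-1 (TGACTCA or TGAGTCA), CRE (TGACGTCA), ETS factors (CCGGAAG), NRF1 (GCGCATGC) and YY1 (AAGATGGCG). The first 5 genes had H3K27ac without JunB: Zfp606, a KRAB zinc finger gene (chr7:12478043-12478342, plus strand); Ndc80, which couples kinetochores to microtubules (chr17:71526808-71527107, minus strand); Rps7, of the small ribosomal subunit (chr12:28635904-28636203, minus strand); Mrps11, of the small mitochondrial ribosomal subunit (chr7:78782869-78783168, plus strand); and Eif3l, of the initiation factor eIF3 (chr15:79074929-79075228, plus strand). Rplp2, of the large ribosomal subunit stalk, is the contrast, since a JunB peak overlapped its H3K27ac peak in all 4 libraries (chr7:141447120-141447419, plus strand).
Zfp606: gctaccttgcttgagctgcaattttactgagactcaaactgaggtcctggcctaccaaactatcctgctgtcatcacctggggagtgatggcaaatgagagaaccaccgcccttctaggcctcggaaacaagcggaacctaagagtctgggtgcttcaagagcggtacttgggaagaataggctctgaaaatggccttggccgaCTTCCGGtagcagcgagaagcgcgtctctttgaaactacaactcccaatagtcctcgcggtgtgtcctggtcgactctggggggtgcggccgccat
Ndc80: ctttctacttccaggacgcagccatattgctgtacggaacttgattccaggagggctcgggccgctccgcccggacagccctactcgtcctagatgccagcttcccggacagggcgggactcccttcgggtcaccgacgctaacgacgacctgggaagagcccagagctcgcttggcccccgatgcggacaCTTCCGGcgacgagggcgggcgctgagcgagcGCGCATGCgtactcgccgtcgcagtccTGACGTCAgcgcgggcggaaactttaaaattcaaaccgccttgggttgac
Rps7: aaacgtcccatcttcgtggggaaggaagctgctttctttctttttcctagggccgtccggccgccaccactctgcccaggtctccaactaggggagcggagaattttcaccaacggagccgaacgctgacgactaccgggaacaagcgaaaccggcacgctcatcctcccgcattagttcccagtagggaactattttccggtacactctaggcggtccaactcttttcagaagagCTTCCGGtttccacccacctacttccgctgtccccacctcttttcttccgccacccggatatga
Mrps11: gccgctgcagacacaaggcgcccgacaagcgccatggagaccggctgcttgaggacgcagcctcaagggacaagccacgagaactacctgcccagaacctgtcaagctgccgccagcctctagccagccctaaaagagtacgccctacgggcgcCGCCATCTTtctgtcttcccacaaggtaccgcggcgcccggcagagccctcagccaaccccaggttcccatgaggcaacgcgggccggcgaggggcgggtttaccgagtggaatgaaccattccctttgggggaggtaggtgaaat
Eif3l: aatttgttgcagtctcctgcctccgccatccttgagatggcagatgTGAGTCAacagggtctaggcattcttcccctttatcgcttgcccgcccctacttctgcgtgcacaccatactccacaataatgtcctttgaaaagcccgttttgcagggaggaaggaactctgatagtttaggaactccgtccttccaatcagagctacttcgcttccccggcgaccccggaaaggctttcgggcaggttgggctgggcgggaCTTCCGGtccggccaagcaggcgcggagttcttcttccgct
Rplp2: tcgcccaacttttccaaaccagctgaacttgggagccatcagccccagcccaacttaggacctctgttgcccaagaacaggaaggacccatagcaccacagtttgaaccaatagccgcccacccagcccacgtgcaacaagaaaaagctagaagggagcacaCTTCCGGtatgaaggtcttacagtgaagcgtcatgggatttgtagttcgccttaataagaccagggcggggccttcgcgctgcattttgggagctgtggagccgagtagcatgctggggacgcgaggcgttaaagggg
In these windows the ETS element stood in 5 of 6 genes, on both sides of the contrast. The AP-1 element stood only in Eif3l among the 6, a gene without JunB, and not in Rplp2. A match to these letters is a description of the sequence and not a binding site.

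Each JunB list left most promoter peaks untouched, but the lists differed widely. Of the 13405 H3K27ac promoter peaks, young replicate 1 overlapped 1588 (11.8%), young replicate 2 overlapped 1157 (8.63%) and young replicate 3 overlapped 860 (6.42%), a mean of 8.96% ± 2.73 (SD, n = 3). The aged library overlapped 3431, or 25.6% (24.9 to 26.3%). The aged value lay above all 3 young values. The number of JunB peaks on the same chromosomes moved with it, with 9327, 4799 and 3796 peaks in the young lists and 13971 in the aged list. Per 1000 JunB peaks, the young lists met 170, 241 and 227 promoter peaks (213 ± 37.4, SD, n = 3) and the aged list 246. Away from promoters the aged list met 12.2% of H3K27ac peaks and the young lists 10.7%, 6.93% and 5.55%, so the aged library stood apart more at promoters. With the strongest 3796 peaks of every JunB list, the aged share was 10.2% and the young mean 6.46%. Age and library cannot be told apart here.

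The set of promoters without JunB therefore rested largely on the aged library. Of the 3721 promoter peaks that overlapped JunB, 1880 (50.5%) did so in the aged list alone, 290 (7.79%) in young lists alone, and 639 in all 4 libraries. With the aged library left out, 86.3% of promoter peaks and 8837 of 10921 genes (80.9%) were without JunB. The lists also had unequal thresholds. The lowest −log10 q was 0.405, 2.26 and 2.10 in the young lists and 0.672 in the aged list.

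**Figure D1:**
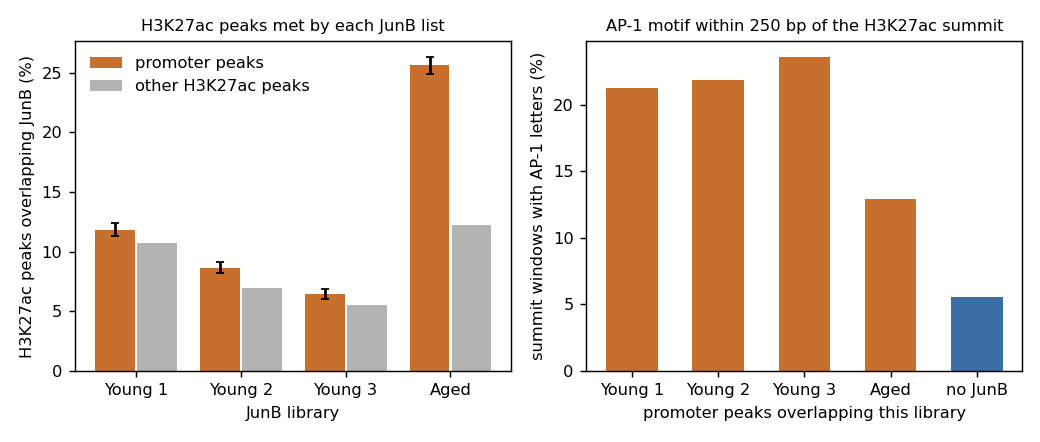
Left, percent of H3K27ac peaks overlapping each JunB library, at promoters (orange, with exact 95% intervals) and elsewhere (grey); right, percent of promoter peaks with the AP-1 element within 250 bp of the H3K27ac summit, for those overlapping each library and for those without JunB (blue). The aged library met 25.6% of promoter peaks against 6.42 to 11.8% for the young ones, while its AP-1 share of 12.9% was lower than the 21.3 to 23.6% of the young libraries and above the 5.52% of peaks without JunB.

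Promoter peaks without JunB were weaker and narrower. Their median fold enrichment, the H3K27ac signal at the summit over the local background, was 3.71 (interquartile range 3.11 to 4.53), against 4.24 (3.47 to 5.14) for promoter peaks with JunB. Their median width was 690 bp against 937 bp. Under the 1 bp rule a wide peak is likelier to meet a JunB peak, so width is partly set by the selection. Against each JunB library on its own the order was the same: peaks met by the 3 young lists had medians of 4.12, 4.18 and 4.16 and those met by the aged list 4.28. Widths of the overlapped peaks were 951, 958 and 972 bp for the young lists and 942 bp for the aged list. These 4 contrasts share the same H3K27ac peaks and the same overlap rule, so they repeat the JunB measurement and not the H3K27ac one. The difference in median fold enrichment, without minus with JunB, was -0.528, and -0.339 with the aged library left out.

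The share without JunB fell with H3K27ac strength. It was 82.8% (80.6 to 84.8%) in the lowest of 10 equal groups by fold enrichment and 56.2% (53.5 to 58.9%) in the highest. Across 4 equal groups by width it was 83.6%, 76.7%, 69.7% and 59.0% from the narrowest to the widest. This fall with width is partly set by the overlap rule. Among peaks without JunB the median fold enrichment rose with width, from 3.24 in the narrowest group to 4.41 in the widest. Within each width group the median fold enrichment was lower without JunB, with differences of -0.200, -0.191, -0.410 and -0.234 from the narrowest to the widest group. With every H3K27ac peak set to 500 bp around its summit, the difference in fold enrichment was -0.515, and with the called peaks it was -0.528. The part of width in these differences was not tested.

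**Figure D2:**
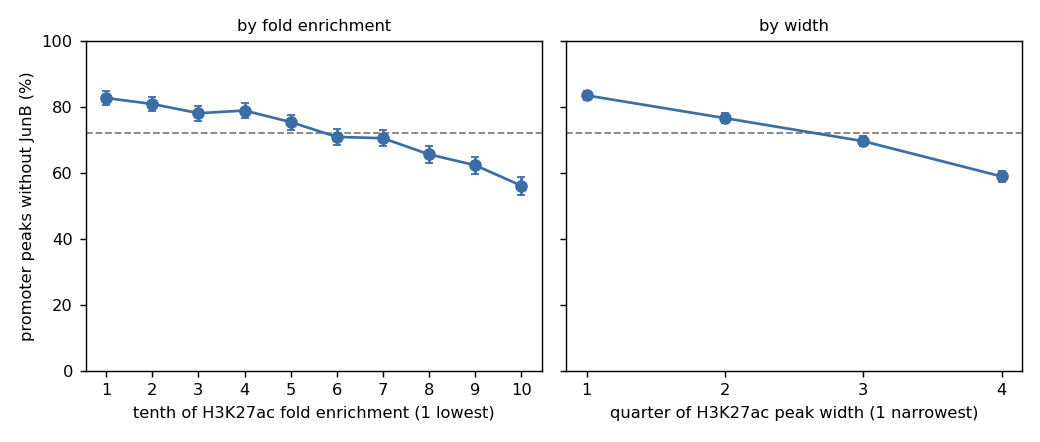
Percent of H3K27ac promoter peaks without JunB in 10 equal groups by H3K27ac fold enrichment (left) and 4 by peak width (right), with exact 95% intervals; the dashed line is the 72.2% of all promoter peaks. The share fell from 82.8% to 56.2% with fold enrichment and from 83.6% to 59.0% with width. The fall with width is partly set by the overlap rule.

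Peaks without JunB also sat differently around the start site. An annotated TSS lay inside the peak in 40.9% (40.0 to 41.9%) of them, against 61.9% (60.4 to 63.5%) of promoter peaks with JunB. Their summits lay a median of 399 bp from the nearest TSS, against 263 bp, and 82.4% of the peaks came within 1 kb of it, against 90.9%. Peaks without JunB were also narrower (median 690 against 937 bp), and a narrow peak is less likely to reach a TSS. The part of width in the shares with a TSS inside or within 1 kb was not tested. The summit was downstream of the TSS in 61.2% without JunB and in 52.2% with JunB. For peaks overlapping the young lists the downstream share was 47.9% ± 1.21 (SD, n = 3), and for the aged list 51.7%. By annotation, 54.9% of summits without JunB lay in an intron, 25.3% in an exon and 19.8% outside protein-coding genes. With JunB these shares were 38.4%, 30.8% and 30.8%.

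**Figure D3:**
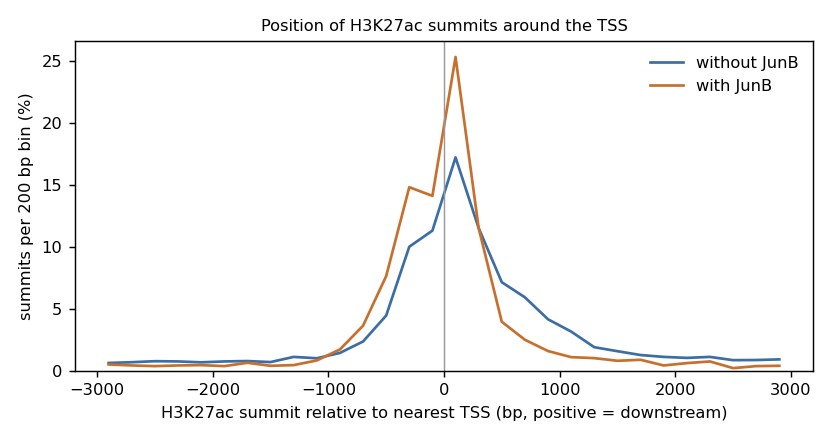
Distribution of H3K27ac summits around the nearest TSS in 200 bp bins, as percent of each class; negative positions are upstream. In the first 200 bp downstream lay 25.3% of summits with JunB and 17.2% of those without, whose curve stays higher beyond 400 bp downstream.

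The gap from these promoters to the nearest JunB peak varied widely. It was measured against the same JunB lists that chose the members, and no background gap is given here. The median gap was 25502 bp (interquartile range 7972 to 64103 bp), and 3089 of the 9684 peaks (31.9%) had no JunB peak within 50 kb. A JunB peak lay within 500 bp of 539 (5.57%) and within 3 kb of 1521 (15.7%). The nearest JunB peak overlapped another H3K27ac peak for 51.6% of members and lay within 3 kb of a TSS for 52.1%. Members with JunB within 1 kb were the weakest and narrowest, with a median fold enrichment of 3.30 and a width of 555 bp, and only 23.4% of them held a TSS. Members with no JunB within 50 kb had 3.92, 722 bp and 46.8%. The rule removed peaks that reached JunB, so wide peaks near JunB were likelier to drop out. These differences are thus partly set by the selection.

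The edge of the selection was fine-grained. Just inside it, the peaks of Garnl3 (fold enrichment 4.12) and Trappc5 (5.69), a subunit of the TRAPP trafficking complex, abutted a JunB peak without sharing a base, and that of Fam111a (3.30) was 1 bp away. Just outside it, peaks of Pnkd (3.38), Idh3a (3.06), a subunit of isocitrate dehydrogenase, and the nuclear receptor coactivator Ncoa3 (2.62) overlapped JunB by 1, 2 and 3 bp. The last 3 each rested on a single JunB library.

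The AP-1 element was less frequent at these promoters than at promoter peaks with JunB. No background share for windows around summits is given here, so whether the element was scarce was not tested. Within 250 bp of the H3K27ac summit it occurred in 535 of 9684 peaks without JunB (5.52%, 5.08 to 6.0%) and in 494 of 3721 peaks with JunB (13.3%, 12.2 to 14.4%). This measure took no part in the selection. The difference was -7.75 percentage points, and -14.1 with the aged library left out. By library, the element stood near 21.3%, 21.9% and 23.6% of the summits overlapped by the young lists (22.3% ± 1.21, SD, n = 3) and near 12.9% of those overlapped by the aged list. All 4 values lay above that of the peaks without JunB. The peaks met by the aged list alone were close to the latter, with AP-1 at 6.86%, whereas peaks met by young and aged lists together had 20.1% and those met in all 4 libraries 26.4%. Peaks met by the aged list alone were otherwise unlike those without JunB, since 67.6% of them held a TSS and their median GC content within 250 bp of the summit was 57.6%, against 40.9% and 52.8%. They were also wider, with a median of 925 bp against 690 bp, and width enters the share that held a TSS.

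Among the members the element's share changed little with the distance to JunB. It stood near 4.82% of summits with a JunB peak within 1 kb, 5.69% of those with JunB between 1 and 50 kb away and 5.44% of those farther off. The E-box letters CAGCTG, of the kind bound by myogenic bHLH factors such as MyoD, showed a small difference the other way, in 29.5% of summit windows without JunB and 26.7% of those with it.

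Genes were then sorted by their promoter peaks. Of 10921 genes with H3K27ac at a promoter, 6743 (61.7%) had only peaks without JunB, 1412 (12.9%) had peaks of both kinds and 2766 (25.3%) had only peaks with JunB. The first class fell with the number of peaks a gene had, from 65.5% of genes with 1 peak to 55.9% with 2, 51.3% with 3 and 29.8% with 4 or more. A gene enters this class only if every one of its peaks lacks JunB, so a fall with peak number is built into the definition. Among the 6743 genes, 796 (11.8%) still had a JunB peak within 3 kb of a TSS, outside the H3K27ac peaks. A further view is by peak: 1787 members (18.5%) shared their gene with a promoter peak that overlapped JunB.

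In the 300 bp window at the main TSS, features differed between genes without and with JunB in either direction or not at all. Windows were CpG-rich (GC of at least 50% and an observed to expected CpG ratio of at least 0.6) in 61.4% (60.2 to 62.5%) of genes without JunB, 69.6% (68.1 to 70.9%) of genes with JunB and 44.3% of all protein-coding genes. A divergent partner, another protein-coding TSS on the opposite strand within 1 kb upstream, was found for 12.6% (11.8 to 13.4%) against 21.3% (20.1 to 22.6%), and for 9.24% of all genes. Seen from the other side, 48.8% of divergent H3K27ac genes were without JunB, against 64.2% of the others. Neighbouring genes, such as a divergent pair, can share a peak and with it the JunB call. They are then not independent, so the intervals for shares of genes may be too narrow. Median GC content hardly differed, at 59.7% and 60.3%.

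Among short motifs, AP-1 letters stood in 2.48% of windows without JunB and 4.24% of windows with JunB, while genes without H3K27ac had 5.68% and all promoters 4.41%. CRE letters, the element of CREB and ATF factors, stood in 3.08% and 4.50% (all promoters 2.53%). The CCAAT box of NF-Y stood in 35.4% and 42.1% (38.5%), the SP/KLF box GGGCGGG in 43.4% and 47.4% (33.7%), NRF1 letters in 4.79% and 5.96% (3.46%) and YY1 letters in 2.67% and 3.69% (1.85%). ETS letters did not separate the classes, at 18.2% (17.3 to 19.2%) and 18.5% (17.4 to 19.7%), and both lay above the 11.3% of all promoters. TATAAA, the TATA box, stood in 7.55% and 6.44%, both under the 12.5% of all promoters. CAGCTG stood in 15.6% without and 13.5% with JunB, against 15.4% of all promoters. In genes without H3K27ac, ETS letters stood in 4.16% and SP/KLF letters in 22.4% of windows, below both H3K27ac classes. With the aged library left out, the difference in AP-1 between the H3K27ac classes was -3.16 percentage points in place of -1.76.

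**Figure D4:**
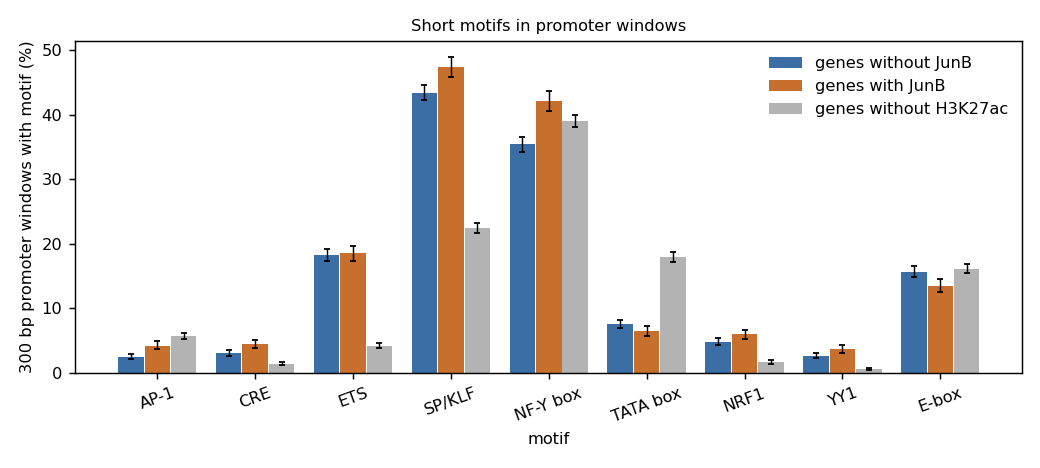
Percent of 300 bp promoter windows with each short motif, for genes with only H3K27ac promoter peaks without JunB (blue), genes with a JunB-overlapping one (orange) and genes without H3K27ac (grey), with exact 95% intervals; the NF-Y box is the CCAAT box and the E-box is CAGCTG. ETS stood at 18.2% and 18.5% in the H3K27ac classes, and AP-1 at 2.48% and 4.24%.

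Among promoters without JunB, the highest fold enrichment was 9.65, at 2010315B03Rik (chr9:124311559-124312806), a gene named only by its clone. Next came Dhx38 at 9.61 (chr8:109564834-109565889), a helicase of pre-mRNA splicing whose nearest JunB peak was 42581 bp away. The KRAB zinc finger genes Zfp606 (chr7:12477833-12478813) and Zfp60 (chr7:27731115-27732273) reached 9.19 and 8.63, with JunB 94420 and 55975 bp away. Eef1akmt2, a methyltransferase of elongation factor eEF1A, and Gmppa, a regulator of GDP-mannose synthesis, both reached 8.79. The carbonyl reductase gene Cbr4 had 8.76, the WASH complex gene Washc3 had 8.71, Tmem254c had 8.70, the kinetochore gene Ndc80 had 8.68 and the P5-type ATPase gene Atp13a1 had 8.58. The histone gene Hist4h4 had 8.72, and here a JunB peak stood 97 bp from the edge. In each of these 12 genes the H3K27ac peak spanned the TSS. For comparison, the strongest promoter peaks that overlapped JunB were at Gm10800 (15.0), Gm32687 (10.6) and Blcap (10.1). The −log10 p at Gm10800 was 35467, against a highest value of 67.0 among members, and whether that region is repetitive sequence was not tested.

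The widest promoters without JunB were of another kind. Sucnr1, the succinate receptor, had a peak of 3317 bp (fold enrichment 3.06). Aldh1a1, a retinaldehyde dehydrogenase, followed with 3208 bp (2.73), and Lpl, lipoprotein lipase, with 2950 bp (3.43). Lama2, the laminin chain of the muscle basal lamina, had 2773 bp (2.88). Cd47, a surface protein that restrains phagocytosis, had 2674 bp (2.51), with JunB 664 bp away, and the ankyrin gene Ank1 had 2663 bp (3.08). These 6 were broad and low, all under the median fold enrichment of the members. The genes with most promoter peaks without JunB were the transcription factor genes Tcf4 and Zbtb20, each with 8 of 10, then Mtus1 with 7 of 7, Fkbp5 with 6 of 7 and Hip1 with 6 of 6. All of these but Mtus1 and Hip1 also had a promoter peak that overlapped JunB.

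Protein synthesis genes lay on both sides. Almost all cytosolic ribosomal protein genes, 75 of 78, had H3K27ac at a promoter, and 40 of the 75 (53.3%, 41.4 to 64.9%) had only peaks without JunB, against 61.7% of all genes. Rpl11 (fold enrichment 7.85), Rps7 (6.28), Rpl6 (6.14) and Rpl34 (6.05) were the strongest of these, while Rplp2 (6.96) overlapped JunB in all 4 libraries. The mitochondrial ribosomal proteins had 53 of 75 without JunB (70.7%, 59.0 to 80.6%), led by the divergent pair Mrpl46 and Mrps11, which share a peak (7.68, chr7:78782580-78783706), and by Mrps31 (6.87) and Mrps33 (6.67). Aminoacyl-tRNA synthetases, which charge tRNAs, had 18 of 35 (51.4%), among them Lars (8.08) and Cars (6.34), though a JunB peak stood 99 bp from that of Lars. Translation initiation factors and their regulators had the lowest share of any list with 10 or more genes, 18 of 47 (38.3%, 24.5 to 53.6%), with the eIF2 kinase gene Eif2ak1 (6.99) and Eif2b1 (6.58) without JunB and Eif3b (7.41) and Eif2s2 (7.30) with it. The median highest fold enrichment of the lists was 4.62, 5.18, 5.09 and 4.60 in this order. Across all genes the share without JunB fell with this value. It was 69.7%, 64.4%, 59.0% and 53.8% in 4 groups of similar size, the upper ones starting at 4.30 and 5.11. The lists, here and below, were not matched for strength, and its part in their shares was not tested.

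Among protein turnover genes, set against 61.7% of all genes, proteasome subunits had 15 of 37 without JunB (40.5%, 24.8 to 57.9%): the strongest were Psmd14 (8.56), the deubiquitinase of the lid, and the base ATPases Psmc4 (7.47) and Psmc1 (7.01). Psmc6 (7.58), another base ATPase, overlapped JunB. Heat-shock proteins and chaperones had 33 of 70 (47.1%, 35.1 to 59.4%), with Dnajc15 (6.26) and Hspa12a (6.0) free of JunB and Hspb6 (7.63) overlapping it in all 4 libraries. Of the same 70 genes, 30 had only promoter peaks with JunB, against 25.3% of all genes. Among these 30 were the cytosolic chaperonin genes Cct2, Cct3, Cct4, Cct5, Cct7, Cct8 and Tcp1, named after their values were seen. Autophagy genes had 15 of 32 (46.9%, 29.1 to 65.3%) without JunB, including Becn1 (6.02) and Map1lc3b (5.79), and the lysosomal proton pump 9 of 19 (47.4%, 24.4 to 71.1%), intervals that hold the 61.7%. Respiratory chain subunits of the mitochondria had 42 of 78 (53.8%, 42.2 to 65.2%), with Ndufs3 (7.30) and Atp5o (6.95) without JunB and Uqcrb (8.10) and Cox7c (8.01) met by the aged list only.

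Nuclear machinery was mixed as well. Spliceosome components had 20 of 34 genes without JunB (58.8%), with Sf3b4 (7.70) and Prpf8 (7.44) the strongest. Mediator subunits had 14 of 28 (50%), and RNA polymerase II with the general transcription factors 17 of 36 (47.2%), such as Taf13 (6.80). DNA replication factors had 19 of 36 (52.8%), among them Rfc4 (8.43) and Orc1 (6.76). Cell cycle regulators had 19 of 27 (70.4%, 49.8 to 86.2%), including Cdk7 (5.46), Plk1 (5.26) and the retinoblastoma gene Rb1 (4.81, with JunB 1122 bp away). Replication-dependent histones had 29 of 49 (59.2%), several of which share a peak with a neighbour. The zinc finger genes of the Zfp family had 206 of 295 without JunB (69.8%, 64.2 to 75%), the only list whose interval lay wholly above the 61.7% of all genes.

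**Figure D5:**
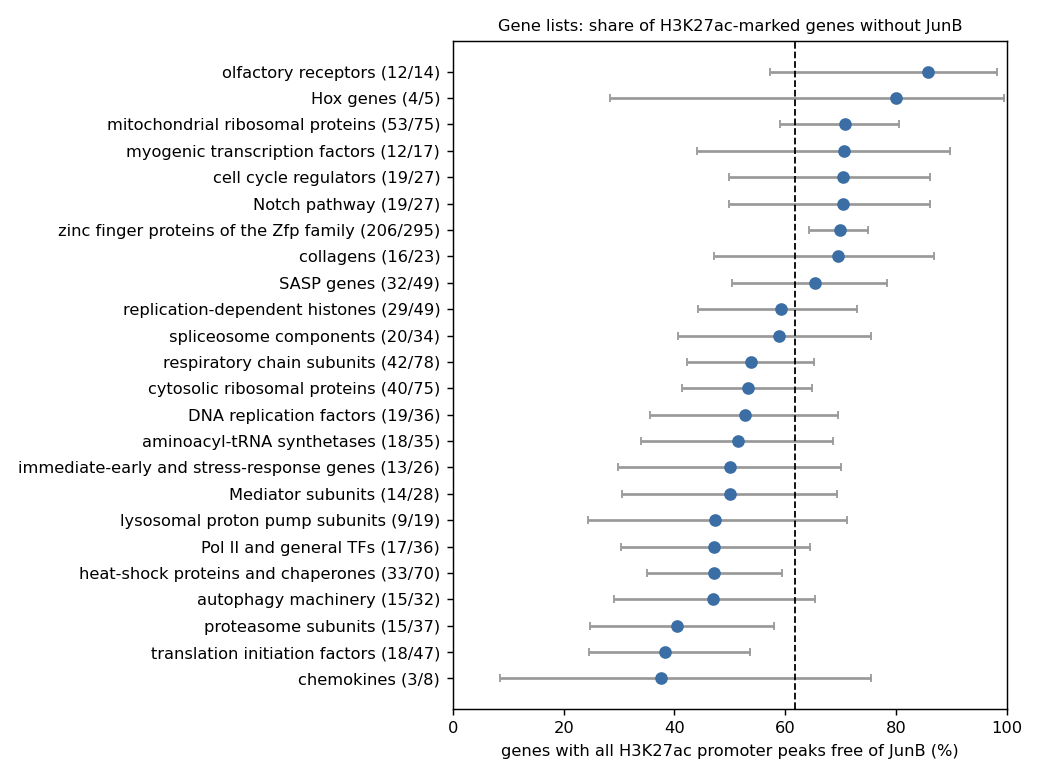
Percent of H3K27ac-marked genes of each list whose promoter peaks were all without JunB, with exact 95% intervals and, in brackets, the genes without JunB and the genes with H3K27ac; the dashed line is the 61.7% of all genes. The interval of the zinc finger genes lies above the line, and those of proteasome subunits (40.5%), translation initiation factors (38.3%) and heat-shock proteins (47.1%) lie below it.

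These shares shifted unevenly without the aged library. The share of all genes without JunB was then 80.9%. Of the lists under the share of all genes with every library, cytosolic ribosomal proteins (85.3%), replication-dependent histones (91.8%), spliceosome components (88.2%) and chemokines (87.5%) then lay above it. Cell cycle regulators (77.8%) and the senescence-associated secretory genes described below (79.6%) turned the other way, from above to below. Proteasome subunits (59.5%) and translation initiation factors (63.8%) stayed below, and Zfp genes (85.8%) above. Heat-shock proteins and chaperones also stayed below, but came nearer to the share of all genes, at 75.7%. Genes of a list are not replicates of a condition, and the lists were not tested against each other.

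Of 17 myogenic transcription factor genes with an H3K27ac promoter peak, 12 (70.6%, 44.0 to 89.7%) were without JunB, an interval that holds the 61.7% of all genes. They included Pax3 (4.0), Myf6 (2.47), Six4 (2.93), Six5 (3.67), Eya1 (3.16), Eya2 (3.87), Eya3 (4.55), Eya4 (3.59), Pitx3 (3.18) and Msc (1.97), most of them homeobox or Eya genes. For Myod1, the bHLH factor of myogenic commitment, the peak (4.42, chr7:46376007-46376786) overlapped JunB in all 4 libraries. Mef2a (5.63) and Srf (3.55), which act on contractile and immediate-early genes, also overlapped JunB.

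Of the 12 MuSC markers with an H3K27ac promoter peak, 8 (66.7%, 34.9 to 90.1%) were without JunB, near the 61.7% of all genes. Itga7 (2.51), the laminin receptor subunit, M-cadherin (Cdh15, 2.32), syndecan-4 (Sdc4, 2.34), Chrdl2 (2.90), Fgfr4 (2.62), the Notch effector gene Heyl (2.05), desmin (Des, 3.17) and Cd34 (2.10) were without JunB. All 8 lay below the median fold enrichment of the members. JunB lay close to some of them, 1263 bp from the Cdh15 peak and 2232 bp from that of Cd34. Vcam1 (2.29) had a peak met by the aged list and 2 peaks without JunB, Met (4.45) likewise had peaks of both kinds, and Itgb1 (4.01) was met by the aged list only. In the Notch pathway, which keeps satellite cells in quiescence, 19 of 27 genes (70.4%, 49.8 to 86.2%) were without JunB, an interval that also holds 61.7%. Without the aged library the Notch share was 81.5%, against 80.9% of all genes. Those without JunB included Notch1 (4.99), Adam17 (4.76), Hes1 (3.54) and Hey1 (3.23), while Rbpj (4.21), the DNA-binding partner of Notch, had peaks of both kinds.

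AP-1 genes and early response genes were often met by JunB nearby. Of 26 such genes with an H3K27ac promoter peak, 13 (50%, 29.9 to 70.1%) were without JunB by the overlap rule, but only 5 of the 26 (19.2%) had no JunB peak within 3 kb of a TSS, against 54.5% of all genes. The dual-specificity phosphatase gene Dusp1 (5.72), Gadd45a (4.01), Gadd45b (3.67) and Ier3 (3.65) were the strongest of the 13, and a JunB peak began 22 bp from the H3K27ac peak of Gadd45b. Jun (3.17) and Jund (3.50) had only peaks with JunB, and Fos (4.74), Fosb (3.70) and Myc (3.46) had peaks of both kinds. Junb itself had no H3K27ac peak within 3 kb of a TSS, so it belongs to neither class.

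Secreted and developmental genes gave small counts. The list of senescence-associated secretory genes drawn up by the study had 49 of 114 genes with an H3K27ac promoter peak, and 32 of the 49 (65.3%, 50.4 to 78.3%) were without JunB, near the 61.7% of all genes. Mst1 (5.90), Angpt2 (5.79) and Mif (5.50) were among the strongest, and Igf1 (3.12), Hgf (3.0) and Tgfb1 (3.50) were also without JunB. Chemokines had 3 of 8 without JunB, Ccl17 (3.98), Cxcl12 (3.34) and Ccl19 (3.20), while Ccl2 (4.86) overlapped JunB in all 4 libraries. Collagens had 16 of 23 (69.6%), including the basement membrane chains Col4a1 (3.12) and Col4a2 (4.72). Only 5 of 39 Hox genes had H3K27ac, 4 of them without JunB and with low values from 1.89 to 2.58. Olfactory receptor genes, best known from the nasal epithelium, had H3K27ac at 14 of 1092, of which 12 were without JunB.

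By chromosome, the share of promoter peaks without JunB ran from 66.4% (63.4 to 69.4%) on chromosome 7 and 66.5% on chromosome 19 to 82.4% (77.8 to 86.4%) on the X, where 267 of 324 peaks were without JunB. All other chromosomes lay between 68.5% and 76.7%.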

How the data were processed

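CUT&RUN libraries of sorted MuSCs were analysed as peak lists, 3 JunB young, 1 JunB aged and 1 H3K27ac. The authors aligned non-redundant reads to mm10 with Bowtie2 and called peaks per library with MACS2. Their methods give a p-value cutoff of 0.001 for JunB. The lowest −log10 p in the deposited lists was 3.01, 5.33 and 5.22 for young replicates 1, 2 and 3 and 3.01 for the aged library. The lists of young replicates 2 and 3 thus hold only peaks well beyond that cutoff. The deposited lists hold fold enrichment, a ratio over local background, the −log10 p-value and −log10 q-value, and an integer display score that was not used. Peaks outside chromosomes 1-19 and X were left out. Peaks within 3 kb (3000 bp) of the TSS of any transcript of a protein-coding gene of GENCODE M21 (GRCm38, the coordinates of mm10) were promoter peaks, and an overlap needed 1 bp. Of the 21755 genes, the promoter window was taken at the principal transcript.

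Python 3.11.15, pandas 2.3.3 and scipy 1.17.1 were used, and the overlap code was checked on simulated data. Classes and ages were not tested, since the H3K27ac and aged JunB groups are 1 library each. Shares carry exact binomial 95% intervals, and young values the SD over 3 libraries, labelled as biological replicates.

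Members and gene lists were chosen with earlier results of these data known. Genes were named by rule: the 12 strongest and 6 widest members, up to 4 genes without and 2 with JunB per list by H3K27ac strength, the peaks at the edge of the overlap rule, the 5 genes with most members, MuSC and sort markers, and Junb. Other named list members were chosen after their values were seen. Alternatives varied the promoter window, the gene set, the thresholds, the overlap rule and the libraries. Some genes that the rule names are not reported here.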

Additional observations from a re-analysis of the deposited data

Results flagged for a closer look

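The H3K27ac list also held 392 peaks outside chromosomes 1-19 and X, of 39865 in all, and 19 of these lay on the Y chromosome. They were used in no comparison. The JunB lists held 207, 85 and 67 such peaks (young) and 152 (aged). No control library was analysed, so these counts stand without a background level.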

How the results depend on the processing

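The differences in fold enrichment, width and AP-1, in promoter windows and at summits, kept their direction under the alternatives tried, and no difference changed sign. The difference in median GC content was 0 with a JunB summit required inside the H3K27ac peak and -2.67 with TSSs of all gene types, which also gave 10260 genes and a share without JunB of 73.6%. That share was 70.2% with a 1 kb promoter window, 74.4% with a JunB −log10 q of at least 2, 86.9% with equal numbers of JunB peaks, 87.6% with JunB in at least 2 libraries, 75.4% with a JunB summit inside the peak, 68.2% with JunB within 500 bp counted, 70.3% with an H3K27ac −log10 q of at least 5 and 74.6% in 500 bp windows at H3K27ac summits. Leaving out each JunB library in turn gave 72.3 to 86.3%, the highest without the aged library and 73.5% without young replicate 1. The difference in fold enrichment then ran from -0.545 to -0.339 and those in AP-1 from -3.16 to -1.73 percentage points in promoter windows and from -14.1 to -7.26 at summits. With equal numbers of JunB peaks, differences were -0.365 in fold enrichment, -212 bp in width, -2.64 points in promoter-window AP-1 and -13.0 in summit AP-1, and the aged library met 10.2% of promoter peaks. With JunB in at least 2 libraries they were -0.327, -206 bp, -3.39 and -14.0 points. The summit AP-1 alternatives were chosen after seeing the data. Fold enrichment and width differed by -0.642 and -304 bp with the JunB summit rule, -0.388 and -181 bp with the 500 bp rule, and -0.404 and -211 bp with the stricter H3K27ac threshold. Merging touching H3K27ac peaks changed none of the values. Width could not be compared in 500 bp windows. Of the 24 function lists, 9 lay above the share of all genes, and 11 without the aged library or with no JunB within 3 kb of a TSS. No paired analysis was possible because only the young libraries carry replicate numbers and no test was run. Depth could not be assessed from peak lists, and H3K27ac has no replicate.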
